A study of Mus musculus with 108 samples.

Results

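The genes described here encode the chaperones, folding enzymes, degradation factors and stress regulators of the endoplasmic reticulum (ER). They are 39 genes chosen by symbol from a table of 55416 genes, and all 39 had enough reads to be tested in each tissue. RNA was sequenced from white adipose tissue (WAT), kidney and liver, with 36 libraries of each, taken from male C57BL/J mice aged 8 to 12 weeks. The mice were Bmal1-iKO or Bmal1-flox, called iKO and flox here, and they were kept under 12 h of light and 12 h of darkness with food and water always available. Each tissue has 3 libraries for each of the 2 genotypes at each of 6 zeitgeber times (ZT, hours after lights on): ZT2, ZT6, ZT10, ZT14, ZT18 and ZT22. The series title speaks of the clock of the intestine, and the labels of the libraries do not state the cells in which Bmal1 was deleted or the Cre line. The labels also do not say that each library came from its own mouse, so the p-values measure the spread between these libraries.

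The ER folds the proteins that a cell secretes or places in its membranes. Chaperones hold unfolded chains, lectin chaperones bind their sugars, oxidoreductases form their disulfide bonds, and chains that fail to fold are sent back to the cytosol for degradation. When unfolded chains build up, the membrane sensors IRE1, ATF6 and PERK start the unfolded protein response. IRE1 splices the Xbp1 mRNA, ATF6 is cut to release a transcription factor, and both raise chaperone and degradation genes; PERK slows translation and raises ATF4, which drives Ddit3, Trib3, Asns and Chac1. Hepatocytes secrete most plasma proteins, and in mouse liver ER stress genes are known to follow feeding and the day-night cycle.

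ATF6 and XBP1 are known to act through the ER stress response element (ERSE), which some promoters of these genes carry. RefSeq promoter windows of GRCm38.p6, from 250 bases before to 50 bases after a start site, were found for 34 of the 39 genes, in 35 windows. The ERSE, searched on both strands as CCAAT, any 9 bases and then CCACG, stood in 10 of these 35 windows (28.6%), against 0.119% of all 32851 windows. The shorter ERSE-II, searched on both strands as ATTGG, any base and then CCACG, stood in 2 windows (5.71%, against 0.0365% of all). The E-box CACGTG, which the BMAL1 and CLOCK pair is known to bind, stood in 4 windows (11.4%, against 7.15% of all), in Calr, Derl3, Dnajb9 and Ssr1. The C/EBP-ATF element, searched as TGATGNAAT, and the cyclic AMP response element, searched as TGACGTCA, were each in 0 of the 35 windows, against 0.965% and 1.79% of all. Only these letters were searched. An element with another base, such as a different last base, is not counted, so these promoters are not shown to lack such elements. The 7 stretches below belong to genes whose values are given further on, and are written 5′ to 3′ on the gene's strand. Capitals mark the ERSE, which reads CGTGG first where it lies on the opposite strand, and in Herpud1 the ERSE-II. A match is a description of the letters and no evidence of binding here.
Hspa5 (chr2:34772013-34772055, plus strand): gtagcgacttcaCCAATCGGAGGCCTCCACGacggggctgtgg
Syvn1 (chr19:6046520-6046562, plus strand): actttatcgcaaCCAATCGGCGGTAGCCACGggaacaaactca
Pdia6 (chr12:17266479-17266521, plus strand): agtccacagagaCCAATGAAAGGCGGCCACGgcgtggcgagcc
Creld2 (chr15:88819508-88819550, plus strand): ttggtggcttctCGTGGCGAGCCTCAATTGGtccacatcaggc
Derl3 (chr10:75893230-75893272, plus strand): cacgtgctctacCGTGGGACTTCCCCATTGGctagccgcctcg
Ero1b (chr13:12565670-12565712, plus strand): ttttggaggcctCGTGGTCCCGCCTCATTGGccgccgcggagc
Herpud1 (chr8:94386365-94386399, plus strand): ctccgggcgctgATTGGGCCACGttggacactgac

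Some libraries stood apart from others of the same tissue and genotype, and they touch the results below. Whether the genotype has a part in this was not tested. Libraries hold 14427900 to 23428500 counts in liver, 13875600 to 22123000 in kidney and 14103500 to 24414800 in WAT (to 6 significant digits). Arntl, the gene of BMAL1, was not called between iKO and flox in any tissue (edgeR log2 difference -0.10 ± 0.18 in liver, 0.28 ± 0.21 in kidney and -0.09 ± 0.22 in WAT, SE). In liver, 11 of the 36 combinations of genotype, time and replicate number, 9 of them iKO and 2 flox, had a mean cell cycle marker level of 3.06 to 3.75 log2 CPM (counts scaled by library size), against -0.53 to 1.15 in the other 25. Their macrophage markers were also higher, at 6.93 to 8.20 against 1.88 to 6.14, and their hepatocyte markers were at 9.83 to 11.9 against 11.6 to 12.4. In bulk tissue, fewer cells of a type and less RNA per cell cannot be told apart. These 11 are iKO ZT6, ZT14 and ZT18 replicates 1 and 2, all 3 iKO libraries of ZT22, and replicate 1 of flox ZT6 and of flox ZT22. Of these 11, 2 iKO combinations (ZT18 replicate 1 and ZT22 replicate 3) carried Xist, a transcript of female cells, and 3 (ZT6 replicate 2, ZT14 replicate 2 and ZT22 replicate 3) had clock genes 4 h or more from their labelled time, the same way in all 3 tissues. Offsets of that size in fewer tissues or in opposite directions, such as 11.7 h in the kidney of iKO ZT2 replicate 1, were not counted among the 3. Main results for the ER genes chosen above are given with and without the 11, the 2 and the 3. These combinations are left out of every tissue by number, and their part in the results with all libraries was not tested.

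In liver, 3 of the 39 ER genes differed between the genotypes when averaged over the 6 times, and all 3 were lower in iKO. They are Derl2, a derlin of the channel that carries misfolded chains out of the ER; Ppib, cyclophilin B, a prolyl isomerase that helps collagen and other chains fold; and Ero1b, an oxidase that recharges protein disulfide isomerase. Calls rest on an edgeR adjusted p under 0.05 over all genes tested, and 2.64% of the 16582 genes tested in liver were called (1.09% higher and 1.56% lower in iKO). At an unadjusted p under 0.05 there were 10 members, against 24.6% of all genes. The fitted difference was below 0 for 24 of the 39, and its median was -0.05 on the log2 scale, against 0.00 for all genes.

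Derl2 had 41.6 to 127.4 CPM in iKO livers (median 80.5, 18 libraries), against 38.2 to 172.2 CPM in flox livers (median 137.4, 18 libraries). The genotypes overlapped, and the 2 flox libraries among the 11 combinations lay at 43.6 and 38.2 CPM. Its averaged log2 difference was -0.70 ± 0.16 (SE; edgeR adjusted p = 0.017), with lower fitted means in iKO at 6 of 6 times. Derl2 also followed the 11 combinations: it was at 38.2 to 75.7 CPM in all 11 of those livers, against 85.2 to 172.2 CPM in the other 25. Within those other livers it had 85.2 to 127.4 CPM in 9 iKO libraries (median 104.5), against 115.4 to 172.2 CPM in 16 flox libraries (median 139.1). Without the 11 combinations the difference was -0.48 ± 0.10 (edgeR adjusted p = 0.00419). It fell short of the threshold without the 2 Xist combinations (-0.66, edgeR adjusted p = 0.0514, with 0.93% of all genes called) and without the 3 clock combinations (-0.62, edgeR adjusted p = 0.0556, with 0.866% called), and it held in all 36 fits that left out 1 library.

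Ppib had 43.6 to 91.8 CPM in iKO livers (median 60.6), against 41.4 to 145.2 CPM in flox livers (median 85.2). The ranges overlapped, and the highest flox livers lay above every iKO liver. The log2 difference was -0.56 ± 0.15 (edgeR adjusted p = 0.036), lower in iKO at 6 of 6 times, and -0.69 ± 0.19 without the 11 combinations (edgeR adjusted p = 0.0316). Leaving out single libraries ended the call in 23 of 36 fits. Ppib shares 825 of its 3305 exonic bases (25.0%) with Snx22 on the opposite strand, and the strand setting of the counting is not given in the sources used here. Snx22 had 554 reads over the 36 livers, against 50814 for Ppib.

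Ero1b had 19.0 to 61.5 CPM in iKO livers (median 42.9), against 30.4 to 77.0 CPM in flox livers (median 52.9). Its averaged difference was -0.43 ± 0.12 (edgeR adjusted p = 0.0498), lower in iKO at 4 of 6 times, and the call was lost in 30 of the 36 fits that left out 1 library and without the 11 combinations (-0.32, edgeR adjusted p = 0.0864). Neither Ppib nor Ero1b was called without the 2 Xist combinations (edgeR adjusted p = 0.0835 and 0.0552) or without the 3 clock combinations (edgeR adjusted p = 0.10 and 0.0556).

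The other members were not called over the day. Of the 11 chaperones and cochaperones, 6 had differences below 0 and only Ppib was called. Of the 9 ER-associated degradation genes, 6 were below 0, with Derl2 called and Edem1, a lectin that sorts mannose-trimmed chains for disposal, at -0.31 (edgeR adjusted p = 0.102). Of the 6 disulfide enzymes 5 were below 0, and of the 4 translocation genes 3 were, among them Sec61b, a subunit of the entry channel, at -0.36 (edgeR adjusted p = 0.126) and Ssr1, a subunit of the translocon-associated protein complex, at -0.36 (edgeR adjusted p = 0.0656). Both transcription factors, Xbp1 and Atf6, lay above 0. In the ATF4 branch 3 of 5 lay below 0, while Chac1, an enzyme that breaks down glutathione, was at 1.51 ± 0.57 (edgeR adjusted p = 0.117).

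Chac1 and Xbp1 separated the 11 combinations from the rest more than they separated the genotypes. Chac1 had 2.03 to 139.4 CPM in iKO livers (median 6.71), against 0.470 to 142.1 CPM in flox livers (median 3.07). In the 11 livers it was at 5.29 to 142.1 CPM, and in the other 25 at 0.470 to 7.40 CPM. Xbp1, whose spliced form is the factor made by IRE1, had 285.6 to 813.9 CPM in the 11 livers and 119.8 to 301.2 CPM in the others. Both of the flox livers among the 11 lay high for Chac1 (142.1 and 117.0 CPM) and for Xbp1 (577.0 and 541.1 CPM). Dnajc3, a cochaperone that also restrains PERK, had 199.5 to 683.2 CPM in the 11 and 84.0 to 275.8 CPM in the others. These are descriptions, since the 11 were singled out by cell cycle markers in the same livers. The share of all genes that separated the 11 from the other 25 was not counted. The separation is therefore not shown to be particular to these genes or to Derl2.

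Without the 11 combinations 8 members were called over the day, all lower in iKO, against 7.03% of all genes. They include 4 chaperones: Manf, a secreted ER-resident factor (-0.98, edgeR adjusted p = 0.00814), Hyou1, a nucleotide exchange factor for BiP (-0.93, edgeR adjusted p = 0.0180), Sdf2l1, a partner of luminal J-domain proteins (-1.39, edgeR adjusted p = 0.0233), and Ppib. The other 4 are Derl2, Ssr1 (-0.61, edgeR adjusted p = 0.00275), Edem1 (-0.56, edgeR adjusted p = 0.00428) and Pdia3, which forms disulfides in glycoproteins (-0.59, edgeR adjusted p = 0.0416). The fitted difference was below 0 for 31 of 39, with a median of -0.40. This fit holds 9 iKO and 16 flox livers, has no iKO liver at ZT22 and has 1 iKO liver each at ZT6, ZT14 and ZT18, which is assumed to vary like the other groups. Hspa5, the gene of the main luminal chaperone BiP, had an averaged difference of 0.03 ± 0.20 with all libraries, smaller than its SE. It ran from -0.079 to 0.151 when 1 library was left out, so its sign was not settled. Without the 11 the Hspa5 difference was -0.57, averaged over the times other than ZT22.

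**Figure D1:**
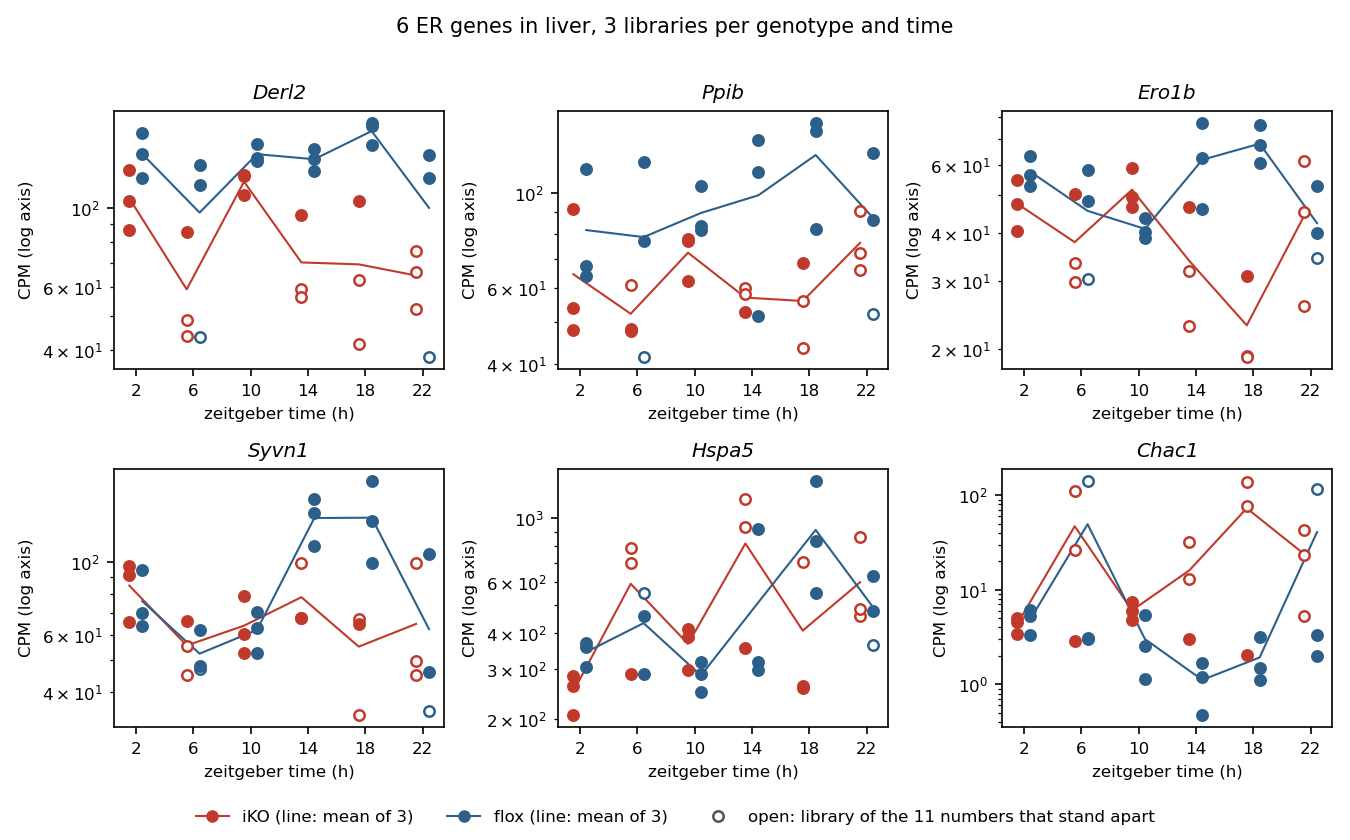
CPM (log axis) of 6 ER genes in liver against zeitgeber time in hours, with 1 point per library (iKO red, drawn to the left of flox in blue) and a line through the mean of 3; open points are the 11 combinations. Derl2, Ppib, Ero1b and Syvn1 lie lower in iKO at ZT18 without overlap, and the high Chac1 values are open points.

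By time of day, the most ER genes separated between the liver genotypes at ZT18 (15 of 39, against 13 at ZT10). ZT18 is in the middle of the dark phase, when mice feed. Of the iKO livers at ZT18, replicates 1 and 2 belong to the 11 combinations, and no flox liver there does. The liver clock genes lay 0, 4 and 3.6 h from the labelled time in iKO, against -3.6, -1.9 and -3 h in flox. The part of either in these differences was not tested. At ZT18 the fitted difference was below 0 for 30 of the 39 members, and the median was -0.68 on the log2 scale, against 0.00 for all genes. Only Ero1b was called, against 0.0362% of all genes. At an unadjusted p under 0.05 there were 18 members, against 19.8% of all genes; there were 10 without flox ZT18 replicate 2 and up to 23 without another single library. All 6 disulfide enzymes and both lectin chaperones had differences below 0, as did 9 of 11 chaperones. Without the 11 combinations, which leaves 1 iKO liver at ZT18, 35 of the 39 members lay below 0, with a median of -0.85.

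Ero1b at ZT18 had 19.1, 19.0 and 30.9 CPM in iKO livers, against 60.5, 76.1 and 67.7 CPM in flox livers. All 3 iKO livers lay below all 3 flox livers. The log2 difference was -1.57 ± 0.30 (edgeR adjusted p = 0.0486), and -1.54 without the 3 clock combinations (edgeR adjusted p = 0.0186). Those 3 include no ZT18 library, so the livers compared here stayed the same. Without the 2 Xist combinations, which include iKO ZT18 replicate 1, 0 members and 0% of all genes were called at ZT18. The call was lost in 29 of 36 fits that left out 1 library, where the difference ran between -1.84 and -1.44.

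Syvn1, the HRD1 ubiquitin ligase of ER-associated degradation, had 66.8, 34.0 and 64.5 CPM in iKO livers at ZT18, against 99.6, 177.1 and 133.2 CPM in flox livers. Manf had 104.0, 37.3 and 39.1 CPM in iKO livers, against 116.0, 268.6 and 196.4 CPM in flox livers. Derl2 had 62.7, 41.6 and 104.1 CPM in iKO livers, against 149.4, 172.2 and 168.8 CPM in flox livers. In each of these genes the groups did not overlap, but the adjusted p missed the threshold (Syvn1 -1.31, edgeR adjusted p = 0.0971; Manf -1.69, edgeR adjusted p = 0.0991; Derl2 -1.24, edgeR adjusted p = 0.108). Hspa5 had 702.4, 257.0 and 260.9 CPM in iKO livers, against 550.2, 1351 and 833.6 CPM in flox livers. The 1 iKO liver above a flox liver is replicate 1, which belongs to the 11 combinations.

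All 4 translocation genes and 6 of 9 degradation genes had differences below 0 at ZT18, with none called. Sec61b had 38.3, 33.8 and 42.2 CPM in iKO livers, against 60.5, 101.3 and 97.8 CPM in flox livers (-1.18, edgeR adjusted p = 0.105). Ssr1 had a log2 difference of -0.86 (edgeR adjusted p = 0.106). Edem1 had 108.1, 83.7 and 75.8 CPM in iKO livers, against 159.6, 201.1 and 158.0 CPM in flox livers (-0.95 ± 0.27, edgeR adjusted p = 0.0991). In all 3 genes each iKO liver lay below each flox liver. Sel1l, the adaptor of the HRD1 ligase, had 88.2, 45.8 and 81.3 CPM in iKO livers, against 99.2, 164.4 and 118.2 CPM in flox livers, again without overlap (-0.83, edgeR adjusted p = 0.113). Hyou1 and Calr overlapped between the genotypes: Hyou1 had 138.4, 48.6 and 45.1 CPM in iKO livers, against 131.8, 324.6 and 183.4 CPM in flox livers, and the iKO liver inside the flox range was replicate 1.

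Trib3 and Chac1, targets of ATF4, had differences above 0 at ZT18 and were not called. Trib3, a pseudokinase, had 6.20, 24.4 and 6.87 CPM in iKO livers, against 1.96, 3.12 and 3.19 CPM in flox livers, without overlap (2.18, edgeR adjusted p = 0.0991). Chac1 had 139.4, 77.3 and 2.03 CPM in iKO livers, against 1.10, 3.18 and 1.499 CPM in flox livers. Its pair of high iKO livers are replicates 1 and 2, both of the 11 combinations, and the third lay between the flox values. Atf4, the factor of this branch, had 109.3, 95.8 and 155.5 CPM in iKO livers, against 138.9, 172.0 and 171.7 CPM in flox livers, which overlap. Ddit3, the factor CHOP, had 8.18, 4.39 and 6.93 CPM in iKO livers, against 9.01, 9.36 and 10.6 CPM in flox livers, lower without overlap.

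Counting groups that do not overlap, 15 members separated at ZT18, 14 of them lower in iKO, against 21.1% of all genes (10% higher and 11.1% lower). At ZT10, late in the light phase, 13 separated, 11 of them higher in iKO, against 21.6% of all genes (11.2% higher and 10.4% lower). At ZT14 there were 7, of which 6 were lower, against 21.1% (11% lower). At ZT2 there were 4 (14.8% of all genes), at ZT6 2 (3.93%) and at ZT22 0 (5.56%). At ZT10 the fitted difference lay above 0 for 31 of 39, with a median of 0.22. The ZT10 and ZT2 libraries hold none of the 11 combinations.

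Dnajb9, a J-domain cochaperone of BiP and a target of XBP1, had 37.6, 45.4 and 43.2 CPM in iKO livers at ZT10, against 18.9, 19.1 and 18.3 CPM in flox livers. Every iKO liver held more than any flox liver, and the log2 difference was 1.17 ± 0.31, but 0 members and 0% of all genes were called at ZT10 by edgeR (Dnajb9 adjusted p = 0.692). At an unadjusted p under 0.05 there were 3 members at ZT10, against 5.45% of all genes. Herpud1, a scaffold of the degradation complex, had 402.1, 400.0 and 442.8 CPM in iKO livers, against 223.6, 281.7 and 327.0 CPM in flox livers. Atf6, the membrane-bound sensor and transcription factor, had 51.3, 61.4 and 47.2 CPM in iKO livers, against 28.3, 35.9 and 35.6 CPM in flox livers (0.68, edgeR adjusted p = 0.856). Both separated upward at ZT10, while Derl2 and Ppib were the members that separated downward. Ero1b separated upward at ZT10, with 46.5, 59.0 and 49.5 CPM in iKO livers against 40.2, 43.8 and 38.8 CPM in flox livers, the opposite of ZT18. Atf4, Atf6, Ddit3, Herpud1 and Trib3 likewise separated one way at one time and the other way at another, which makes 6 of 39 members, against 7.14% of all genes. For the interaction of genotype and time, edgeR called 0 members and 0% of all genes, with 10 members at an unadjusted p under 0.05 against 6.45% of all genes. DESeq2 called 1 member, Ero1b (adjusted p = 0.0206), against 0.482% of all genes.

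**Figure D2:**
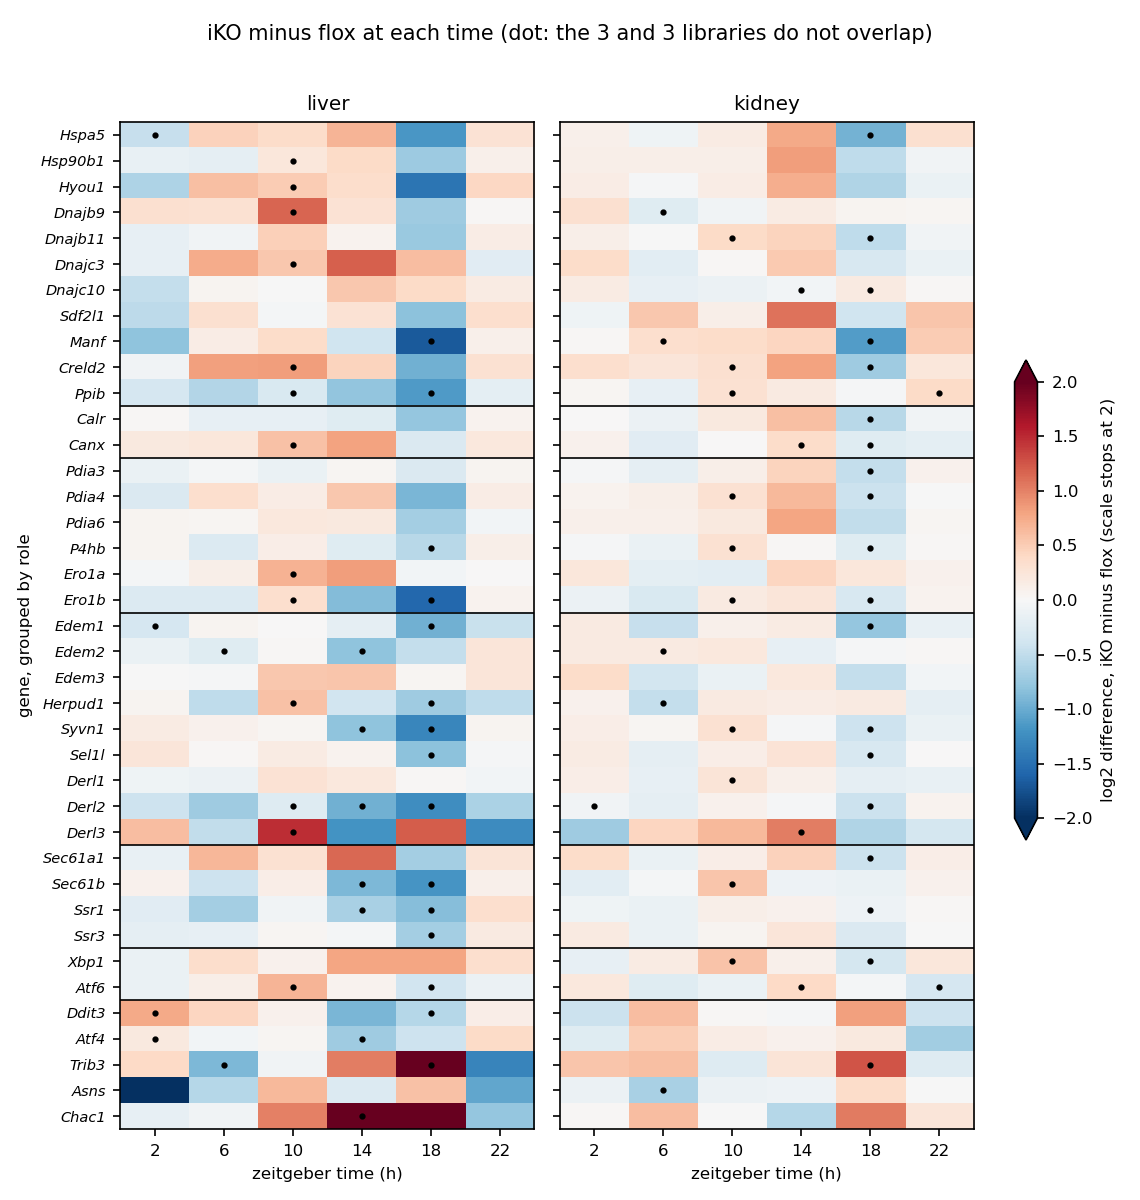
Fitted log2 difference, iKO minus flox, of the 39 genes (rows, grouped by role) at each zeitgeber time in hours (columns) in liver and kidney; red is higher in iKO, blue is lower, and a dot marks 3 iKO and 3 flox libraries that do not overlap. The ZT18 column is mostly blue in both tissues, 30 of 39 genes in each, and the ZT10 column mostly red, 31 of 39 in each.

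A 24 h cosine fit asked whether the liver genes cycled. In flox livers Trib3 was the only member called rhythmic, against 0.772% of all genes (edgeR adjusted p = 0.0434). The call was lost in 21 of the 36 fits that left out 1 library and with the replicate number as a block. Trib3 peaked at 2.5 h in flox with an amplitude of 1.33 (the distance from the mean to the peak in log2 units), and its fit in iKO peaked at 23.1 h with an amplitude of 0.76. At an unadjusted p under 0.05 there were 16 members in flox, against 14.9% of all genes, and 12 of the 16 peaked between 16 and 20 h. Of all 39 members, 22 had their fitted flox peak in that window, against 10 for the iKO fit. The share of all genes with a peak in that window was not counted, so it is not shown to be particular to the members. In iKO livers 0 members were called by edgeR and 0 by DESeq2, with 4 at an unadjusted p under 0.05 (0.0844% of all genes called and 12.2% at the unadjusted p). For a change of rhythm edgeR and DESeq2 each called 0, with 5 at an unadjusted p under 0.05 (0% and 4.79% of all genes); the 5 were Ddit3, Syvn1, Chac1, Ero1b and Trib3.

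Without the 11 combinations, which removes 2 of the 18 flox livers, 13 members were called rhythmic in flox, against 8.24% of all genes. Of these, 11 peaked in the dark phase between 16 and 20 h: Hspa5, Calr, Creld2, Hyou1, Manf, Sdf2l1, Pdia4, Pdia6, Edem1, Syvn1 and Atf4. Creld2, an ER-resident factor bound to protein disulfide isomerases, had an amplitude of 1.24 and a peak at 17.6 h (edgeR adjusted p = 0.00136), and Hspa5 an amplitude of 0.77 and a peak at 18.7 h (edgeR adjusted p = 0.00671). Trib3 and Chac1 peaked at 3.3 h, early in the light phase. Where all genes called in this fit peaked was not counted. In the 9 remaining iKO livers 0 members were called by edgeR, with 3 at an unadjusted p under 0.05 (0.861% of all genes called). The change of rhythm was called for 0 members with 16 at an unadjusted p under 0.05 (0% of all genes called), so a difference in rhythm between the genotypes was not shown.

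In kidney, 0 of the 39 members differed between the genotypes over the day by edgeR or by DESeq2, and 0 had an unadjusted p under 0.05 (0.164% of 17630 genes called and 9.43% at the unadjusted p). The lowest adjusted p was that of Ppib at 0.578, with a log2 difference of 0.12. Derl2, called in liver, had differences between -0.43 and 0.09 at single times in kidney. The test of the difference between tissues gave -0.61 for Derl2 in liver minus kidney (edgeR adjusted p = 0.0858; 0 members and 0.395% of all genes called).

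A few kidney members were called rhythmic in each genotype. In iKO kidneys 4 members were called rhythmic, Derl3, Sdf2l1, Creld2 and Pdia4, against 4.22% of all genes. In flox kidneys 6 were called, Ssr1, Ero1a, Sdf2l1, Creld2, Derl3 and Dnajc10, against 5.07% of all genes. Their unadjusted counts were 16 in iKO (22.5% of all genes) and 14 in flox (22.3%). Creld2, Sdf2l1 and Derl3 were called in both.

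Creld2 in iKO kidneys had 29.4, 19.0 and 18.7 CPM at ZT2 and 132.8, 67.6 and 45.7 CPM at ZT14. In flox kidneys it had 16.4, 21.2 and 15.4 CPM at ZT2 and 26.2, 75.9 and 39.01 CPM at ZT14. At ZT14 the groups overlapped, and replicate 1 was the highest in iKO and the lowest in flox. The fitted amplitude was 0.77 in iKO with a peak at 13.5 h, against 0.70 in flox with a peak at 15.1 h (edgeR adjusted p = 0.0218 and 0.0391).

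Sdf2l1 had 79.2, 55.9 and 13.6 CPM in iKO kidneys at ZT14, against 6.05, 49.5 and 14.6 CPM in flox kidneys, and 3.996 to 9.87 CPM in iKO against 5.98 to 8.29 CPM in flox at ZT2. Its amplitude was 1.18 in iKO with a peak at 15.4 h, against 1.05 in flox with a peak at 16.6 h (edgeR adjusted p = 0.0206 and 0.0348). Derl3, a derlin known from secretory tissues, stayed low at 0.28 to 3.3 CPM and peaked at 14.1 h in iKO, against 17.6 h in flox (edgeR adjusted p = 0.0111 and 0.0399). Ssr1 peaked near lights on, at 23.8 h in iKO and 0.3 h in flox, with small amplitudes of 0.16 and 0.24 (edgeR adjusted p = 0.136 and 0.0217).

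The iKO calls changed with the libraries left out. Of the 18 iKO kidneys, 9 belong to the 11 combinations, among them all those of ZT22. Without the 11 combinations 0 members were called rhythmic in iKO kidneys, with 4 at an unadjusted p under 0.05 (0.17% of all genes called). Without the 2 Xist combinations 2 were called (0.948% of all genes) and without the 3 clock combinations 1, Derl3 (0.875% of all genes). Without iKO ZT14 replicate 1 alone 1 was called, and without iKO ZT2 replicate 1 alone 10 were. For fits without a single library, shares over all genes are not given, so these moves are not shown to be particular to the members. In flox kidneys 6 were called without the 11 combinations (8.65% of all genes), and without flox ZT18 replicate 2 alone 1 was. Among single genes, leaving out 1 library ended the iKO call of Pdia4 in 17 of 36 fits and the flox call of Dnajc10 in 32, while the iKO call of Derl3 held in all 36. The iKO calls of Creld2 and Sdf2l1 were lost in 1 and 2 of the 36 fits. Interferon-stimulated markers in kidney were at 4.45 to 6.91 log2 CPM in the 11 combinations, against 1.64 to 4.68 in the other 25.

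**Figure D3:**
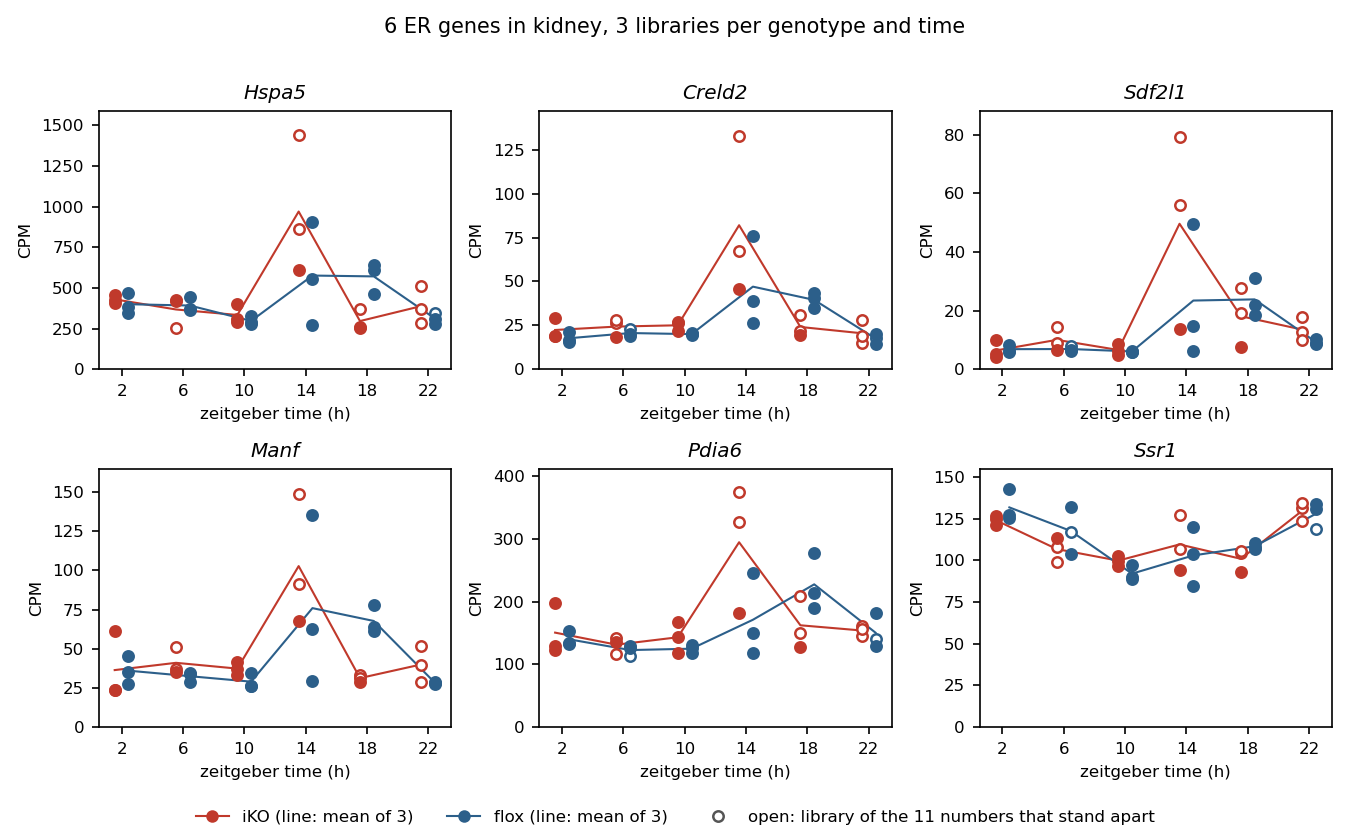
CPM (linear axis) of 6 ER genes in kidney against zeitgeber time in hours, with 1 point per library (iKO red, to the left of flox in blue), open points for the 11 combinations and a line through the mean of 3. Hspa5, Creld2 and Sdf2l1 have their highest points at ZT14. For Hspa5 and Creld2 1 iKO library lies far above the others. For Sdf2l1 another iKO library and a flox library (49.5 CPM) are also high beside the highest iKO library (79.2 CPM). The 3 Manf iKO points at ZT18 (28.9 to 33.5 CPM) lie below the flox points (61.3 to 77.7 CPM).

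The fitted kidney peaks lay earlier in iKO. The 11 members with an unadjusted p under 0.05 in both genotypes all had an earlier fitted peak in iKO, by 0.53 to 3.54 h, with a median difference of -2.41 h. This was not particular to them: of the 2149 genes that met the same condition, 86.0% had an earlier peak in iKO, with a median of -1.64 h. Without the 11 combinations 4 members met the condition and 3 of the 4 were earlier (median -2.63 h), as were 65.9% of the 1168 genes that met it (median -0.75 h). In that fit the iKO amplitudes of Calr and Pdia6 were 0.056 and 0.045 log2 units. Without the 2 Xist combinations 9 of 9 members that met the condition were earlier (83.1% of such genes), and without the 3 clock combinations 7 of 7 (84.4% of such genes). The test for a change of rhythm called 0 members by edgeR and by DESeq2, with 1, Derl3, at an unadjusted p under 0.05 (0% and 2.14% of all genes).

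At single times, 0 kidney members were called by edgeR or by DESeq2, against 0% of all genes at ZT2, ZT6, ZT10, ZT14 and ZT18 and 0.0113% at ZT22. At an unadjusted p under 0.05 there were 0 members at ZT2 (6.47% of all genes), 0 at ZT6 (6.22%), 2 at ZT10 (2.91%) and 3 at ZT22 (8.58%). At ZT14 the difference lay above 0 for 31 of 39 members (median 0.24 on the log2 scale; 12 with an unadjusted p under 0.05, against 7.01% of all genes), and this count was 1 without iKO ZT14 replicate 1. At ZT18 it lay below 0 for 30 of 39 (median -0.32; 11 with an unadjusted p under 0.05, against 14.2% of all genes, and 5 without flox ZT18 replicate 2), and for 33 of 39 without the 11 combinations (median -0.24). At ZT18 19 members separated without overlap, 17 of them lower in iKO, against 17.9% of all genes (8.84% higher and 9.1% lower). At ZT10 10 separated, all higher in iKO, against 15.4% of all genes (7.41% higher and 7.96% lower).

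Hspa5 at ZT18 had 371.9, 262.5 and 253.5 CPM in iKO kidneys, against 465.4, 608.7 and 638.4 CPM in flox kidneys (-0.95 ± 0.31, edgeR adjusted p = 0.225). Manf had 33.5, 31.3 and 28.9 CPM in iKO kidneys, against 61.3, 77.7 and 64.1 CPM in flox kidneys (-1.11 ± 0.37, edgeR adjusted p = 0.228). Calr had 535.3, 531.7 and 353.7 CPM in iKO kidneys, against 652.1, 793.6 and 649.6 CPM in flox kidneys (-0.56, edgeR adjusted p = 0.328). All 3 genes separated fully, and none of the 3 was called. Xbp1 separated in both directions, downward at ZT18 with 118.4, 131.2 and 150.3 CPM in iKO kidneys against 171.6, 160.7 and 180.3 CPM in flox kidneys, and upward at ZT10 with 191.5, 275.3 and 160.0 CPM in iKO kidneys against 144.0, 133.5 and 145.0 CPM in flox kidneys (edgeR adjusted p = 0.475 and 1). At ZT14 the order was other: Hspa5 had 1438, 862.6 and 608.3 CPM in iKO kidneys, against 273.2, 902.6 and 552.2 CPM in flox kidneys, which overlap. In kidney 11 of 39 members separated upward at one time and downward at another, against 8.29% of all genes, and the interaction was called for 0 members by edgeR and by DESeq2 (0% of all genes by edgeR; 5 members at an unadjusted p under 0.05, against 7.79% of all genes).

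Most ER genes in WAT were higher in the libraries rich in markers of epididymis. The libraries labelled as white adipose tissue held markers of epididymis and testis at widely different levels: the mean of 10 such markers was -2.46 to 8.49 log2 CPM in 18 iKO libraries (median 5.36), and -2.37 to 8.42 in 18 flox libraries (median 5.30). Crisp1, a secretory protein of the epididymis, reached 34588 CPM in WAT, against at most 0.147 CPM in kidney and 0 in liver. Summed adipocyte markers ran from 234.5 to 59060 CPM. The mean lay above 3 in 25 libraries (12 iKO and 13 flox) and below it in 11 (6 iKO and 5 flox).

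Of the 39 members, 32 had a higher median in the 25 libraries above that mean than in the 11 below it, 18 of them at least 2-fold. The share of all genes that did so was not counted, so this is not shown to be particular to the members. Hspa5 had 447.6 to 2083 CPM above it (median 1255) and 84.5 to 519.2 CPM below it (median 366.3). Dnajc10, a J-domain protein that reduces disulfides of chains bound for degradation, had 213.9 to 1674 CPM above it (median 1001) and 43.0 to 641.3 CPM below it (median 76.4). Derl3 had 0.82 to 146.6 CPM above it (median 49.0) and 0 to 2.003 CPM below it (median 1.47). Asns, asparagine synthetase and an ATF4 target, went the other way, with medians of 34.3 CPM above it and 76.1 CPM below it. No member separated these libraries without overlap. How far epididymal RNA makes up the members' WAT levels was not tested.

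**Figure D4:**
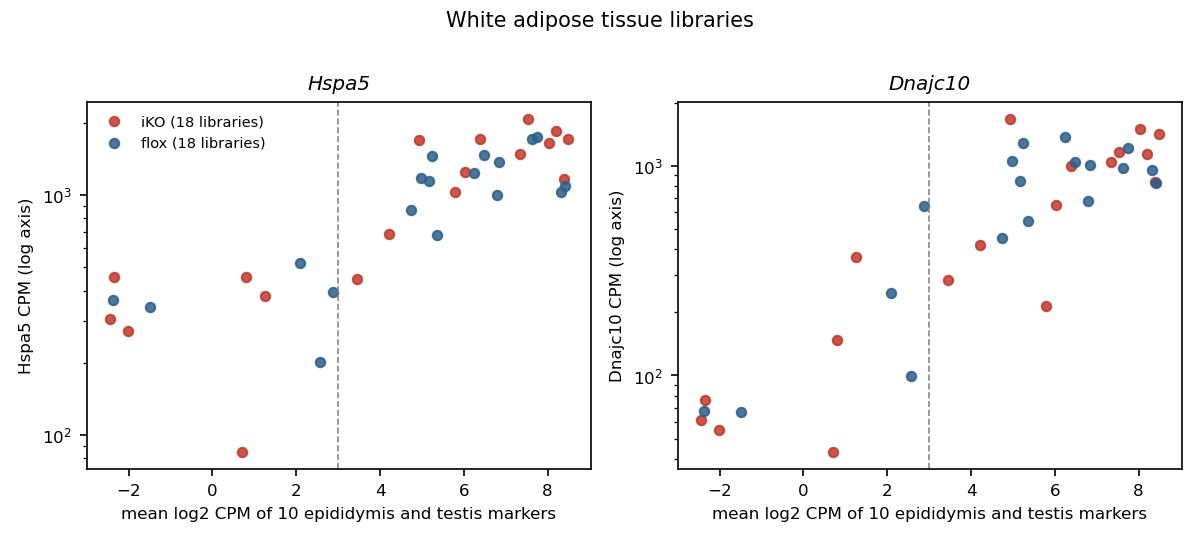
CPM (log axis) of Hspa5 and Dnajc10 in the 36 WAT libraries against the mean log2 CPM of 10 epididymis and testis markers, with 1 point per library (iKO red, flox blue) and a dashed line at 3. Both genotypes spread over the whole horizontal range, and the medians right of the line are 1255 CPM for Hspa5 and 1001 CPM for Dnajc10, against 366.3 and 76.4 CPM left of it.

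Between the genotypes 0 WAT members were called over the day, at any time, for rhythm in either genotype or for a change of rhythm, by edgeR or by DESeq2, and edgeR called 0% of 21402 genes in each of these tests. Over the day 0 members had an unadjusted p under 0.05, against 3.76% of all genes. For rhythm, 5 did in flox (9.69% of all genes) and 0 in iKO (3.78%), for the change of rhythm 0 did (3.15%), for the interaction 0 did (2.64%), and 2, Dnajc10 and Canx, did for the genotype difference at ZT10 (5.8%). The largest averaged differences were Trib3 at 0.59, Derl3 at 0.45 and Creld2 at 0.38 (edgeR adjusted p = 1 each). Trib3 at ZT6 had 8.23, 5.28 and 8.38 CPM in iKO WAT, against 2.82, 2.78 and 3.03 CPM in flox WAT, without overlap, as 3 members did at ZT6 (6.62% of all genes). At ZT2 it had 8.36, 1.65 and 34.8 CPM in iKO WAT, against 4.09, 2.04 and 14.9 CPM in flox WAT. With the epididymis mean as a term in the model, edgeR again called 0 members in each test.

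The genotype effect averaged over the day differed between tissues for 1 member. For Derl2 the effect in liver minus that in WAT was -0.65 ± 0.17 (edgeR adjusted p = 0.0498, against 0.592% of all genes called). It was not called without the 11 combinations, without the 2 Xist combinations, without the 3 clock combinations or with the replicate number as a block. It was also lost in 2 of the 3 fits that left out 1 replicate number, where the difference ran from -0.82 to -0.44. The model of all libraries treats libraries that share a number in different tissues as independent. For kidney minus WAT 0 members were called by edgeR and by DESeq2 (0 at an unadjusted p under 0.05, and 0.0132% of all genes called).

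The levels of the ER genes themselves differed by tissue. Per kilobase of gene length, the highest medians in flox livers were those of P4hb at 642.6 CPM per kilobase (protein disulfide isomerase, also the beta subunit of collagen prolyl hydroxylase), Calr at 258.4 (calreticulin), Pdia3 at 202.4, Herpud1 at 166.3 and Hspa5 at 134.7. In flox kidneys P4hb led at 228.7 CPM per kilobase, followed by Pdia3 at 132.3, Calr at 126.0 and Herpud1 at 125.3. In flox WAT Calr led at 264.1 CPM per kilobase, followed by Pdia3 at 191.8, P4hb at 186.3, Hspa5 at 185.3 and Dnajc10 at 123.9, which was not among the leading 5 in liver or kidney.

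In flox libraries 34 members differed between liver and kidney, 30 of them higher in liver, against 62.5% of all genes (28.5% higher and 34% lower). Chac1 (3.69), Trib3 (3.17), Sdf2l1 (2.46), Derl2 (1.99) and Ero1b (1.91) had the largest log2 differences. The 4 lower in liver were Edem3, a mannosidase (-0.94), Dnajc10 (-0.76), Ero1a (-0.69) and Canx, calnexin (-0.51). Between liver and WAT 25 differed, 18 higher and 7 lower in liver, against 74.2% of all genes (29.1% higher and 45.2% lower). Herpud1 was higher in liver by 2.13, and Dnajc10 was lower by a log2 difference of -3.83. Between kidney and WAT 24 differed, 23 of them lower in kidney, led by Derl3 (-4.17), Asns (-3.49) and Dnajc10 (-3.07), against 63.5% of all genes (25.1% higher and 38.4% lower). These differences stand beside the epididymis markers: Dnajc10 had a median of 68.9 CPM in flox kidneys, against 76.4 CPM in the WAT libraries of both genotypes below the marker mean of 3 and 1001 CPM in those above it. Derl3 had a median of 0.935 CPM in flox kidneys, against 1.47 CPM in the WAT libraries below that mean and 49.0 CPM in those above it. Asns had a median of 3.90 CPM in flox kidneys, against 76.1 CPM in the WAT libraries below that mean and 34.3 CPM in those above it. These CPM are scaled within each tissue, so they are not on 1 scale between kidney and WAT. The part of epididymal RNA in the differences between tissues was not tested.

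These directions depend on the scaling. The trimmed-mean scaling factors had medians of 0.601 in liver, 1.12 in kidney and 1.41 in WAT, so liver levels are raised against the others. With them, 35 members had a higher mean in liver than in kidney, 29 a higher mean in liver than in WAT and 7 a higher mean in kidney than in WAT; by total counts alone these numbers were 24, 8 and 1. The median difference over all genes was -0.06, -0.40 and -0.26 in the same order, and over the members 1.08, 0.28 and -0.54.

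**Figure D5:**
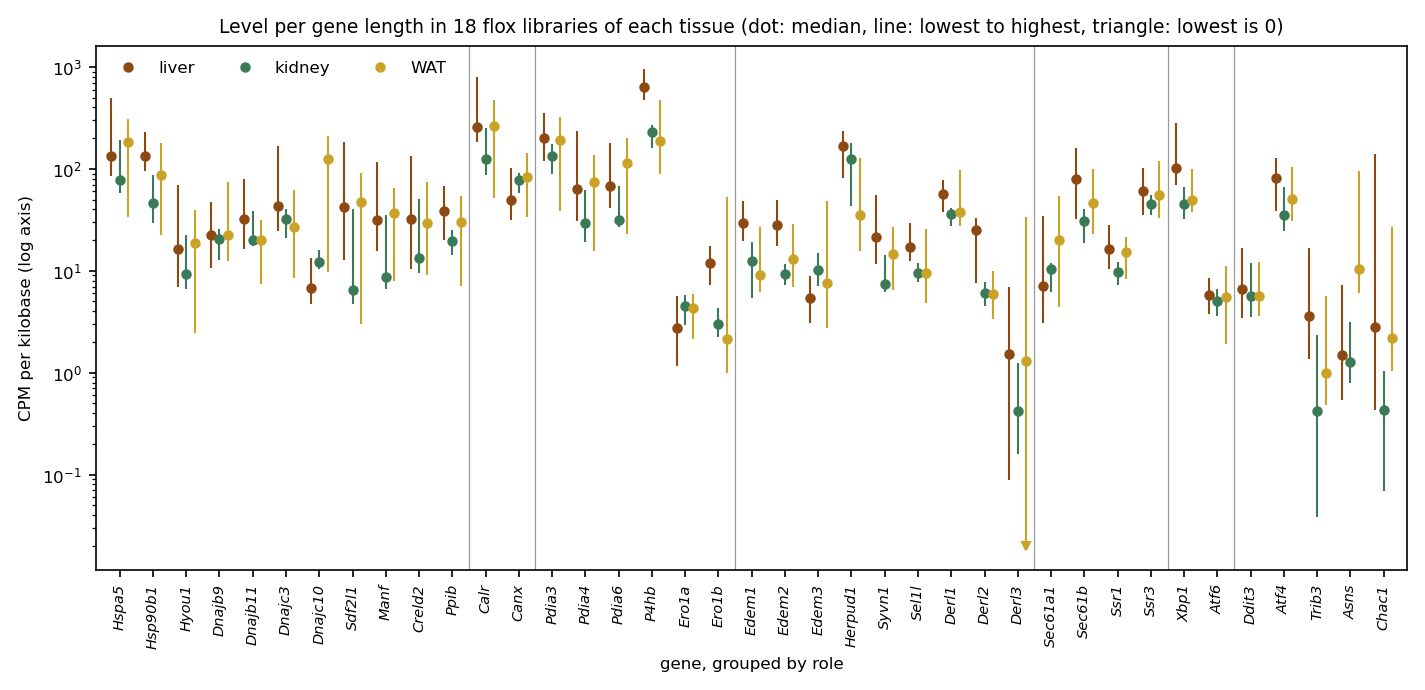
CPM per kilobase of gene length (log axis) of the 39 genes in 18 flox libraries of liver, kidney and WAT, grouped by role; dots are medians, lines run from the lowest to the highest library, and a triangle marks a lowest value of 0. P4hb is highest in liver at 642.6 CPM per kilobase, and WAT has the widest ranges.

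A list of 133 further genes was set beside the members: stress sensors, other folding and glycan-processing genes, other degradation genes and other ATF4 and integrated stress response genes. In liver 5 of 131 tested were called over the day, against 2.64% of all genes. Higher in iKO were 3 of 39 genes of the ATF4 list, against 1.09% of all genes: Cebpb, a transcription factor (0.89, edgeR adjusted p = 0.0107), Atf5, a factor translated under stress (0.67, edgeR adjusted p = 0.0391), and Slc7a5, an amino acid transporter (0.88, edgeR adjusted p = 0.0418). Lower were Ern1, the IRE1 sensor (-0.57, edgeR adjusted p = 0.0345), and Erp44, which retains oxidases and clients in the ER (-0.38, edgeR adjusted p = 0.0307). For the genes of this list, no results are given without the combinations that stood apart, so their calls stand for all libraries only. Among the members, no liver call over the day held without the Xist or without the clock combinations. Derl2 and Ppib held without the combinations set apart by cell cycle markers. At ZT18 in liver 42 of the 51 folding genes had differences below 0, with a median of -0.59, and 0 of the 131 were called by edgeR (40 at an unadjusted p under 0.05, against 19.8% of all genes). In kidney 6 of 129 were called rhythmic in iKO (4.22% of all genes) and 7 in flox (5.07%), among the 7 Fkbp14, a prolyl isomerase (edgeR adjusted p = 0.00457), and 0 differed between the genotypes in kidney or WAT by edgeR.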

How the data were processed

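Whole-number read counts per gene were deposited by the authors as 1 table with 36 libraries of each tissue; the submitters' processing notes name featureCounts 1.5.0-p3, HISAT2 2.0.4, DESeq2 1.16.1 and GRCm38/mm10. Per the labels' protocols, Trizol was used for total RNA, the NEBNext Ultra RNA kit for libraries, and reads were 150 bp long. The strand setting of the counting is not given in the sources used here; 11 of the 39 members share exonic bases with another gene in the reference annotation. Gene starts and ends in the count table equal those of that annotation for only 2 of the 39 members, so no coordinates of the table are printed.

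From the counts, edgeR 4.0.16 (R 4.3.3) fitted quasi-likelihood models per tissue with 12 group means after filterByExpr and TMM scaling, a cosine of 24 h per genotype for rhythm, and 1 model of all libraries for comparisons between tissues. A call is a p under 0.05 after Benjamini-Hochberg adjustment across every gene tested. CPM are TMM-scaled; log2 CPM of markers carry a prior count of 2. DESeq2 1.42.0, other scalings, no filter, a replicate block, time as a factor and left-out libraries were alternatives, and the code was tested on simulated data. Intervals cover counting error and spread between libraries only. The members, lists, marker sets and the left-out combinations were chosen with earlier results of these data known; promoter sequences come from RefSeq (GRCm38.p6). Genes named individually are the members called, those with the lowest p in a test, the leading genes by level, and main regulators; Chac1, Xbp1, Dnajc3 and Dnajb9 were added after their values were seen.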

Additional observations from a re-analysis of the deposited data

Results flagged for a closer look

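The averaged genotype effect on Derl2 was lower in liver than in WAT, with a log2 difference of -0.648 ± 0.17 between the 2 effects (edgeR adjusted p = 0.0498). It was picked out because the difference between the tissues was itself tested and passed the threshold. In liver the effect was -0.70, lower in iKO at 6 of 6 times. The call was not made without the 11 combinations, without the 2 Xist combinations, without the 3 clock combinations, with the replicate number as a block, or in 2 of the 3 fits that left out 1 replicate number.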

How the results depend on the processing

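In liver the 3 members called over the day became 5 with DESeq2 (9.7% of all genes), 1 with no filter (0.711%), 8 without the 11 combinations (7.03%), 0 without the 2 Xist combinations (0.93%) and 0 without the 3 clock combinations (0.866%; the last chosen after seeing the data). They ranged from 1 to 7 over the fits that left out 1 library. No shares over all genes are set beside the ranges over such fits here or below. The 1 pair of member and time called in liver became 12 with DESeq2 (1966 pairs over all genes, against 6 by edgeR), 2 with each time fitted alone (302 pairs), 0 with no filter (4), 2 without the 11 combinations (270) and 0 without the 2 Xist combinations (0), and ranged from 0 to 8, with 8 without iKO ZT18 replicate 3. DESeq2 called 1 liver interaction (0.482% of all genes), against 0 by edgeR. The 1 member called rhythmic in flox liver became 5 with DESeq2 (2.87% of all genes), 0 with no filter (0.251%), 6 with time as a factor (4.11%) and 13 without the 11 combinations (8.24%), and ranged from 0 to 4, with 4 without flox ZT22 replicate 1. In iKO liver time as a factor called 2 (11.6% of all genes), against 0. The 6 members called rhythmic in flox kidney became 0 with no filter (1.45% of all genes) and ranged from 1 to 7. The 4 in iKO kidney became 10 with DESeq2 (8.96% of all genes), 26 with time as a factor (40%), 0 without the 11 combinations (0.17%), 2 without the 2 Xist combinations (0.948%) and 1 without the 3 clock combinations (0.875%), and ranged from 1 to 10. The liver minus kidney difference of genotype effects had 1 call with DESeq2 (1.88% of all genes), against 0. The liver minus WAT difference lost its 1 call with no filter and without each of the 3 sets of combinations, with 0 each, and ranged from 0 to 2 over the 3 fits that left out 1 replicate number. In the same fits the kidney minus WAT calls in flox ranged from 15 to 24, liver minus kidney from 29 to 34 and liver minus WAT from 21 to 24. The other counts of calls within a tissue were 0 in all 36 fits that left out 1 library, and those of genotype effects for liver minus kidney and kidney minus WAT were 0 in all 3 fits that left out 1 replicate number. The averaged Hspa5 difference in liver, 0.03, was -0.57 without the 11 combinations, -0.057 without the 2 Xist combinations and -0.079 to 0.151 without 1 library. Some of these fits hold fewer libraries or test more genes, and the cause of these moves was not tested.

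Samples of the 2 genotypes share replicate numbers. The median correlation of same-numbered iKO and flox libraries came to 0.11 in WAT, 0.04 in liver and 0.03 in kidney. In that order 10, 6 and 5 of 18 pairs exceeded 0.1. The correlations ran from -0.656 to 0.853 in WAT, -0.614 to 0.694 in liver and -0.298 to 0.43 in kidney. They do not settle whether the numbers pair the libraries. With the replicate number as a block, the same 3 members were called over the day in liver, the flox rhythm calls in liver went to 0, those in kidney to 5 in flox and 3 in iKO, and the liver minus WAT difference to 0.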
